A study of Mus musculus with 9 samples.

Results

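Lactate leaves and enters cells through monocarboxylate transporters (MCTs) of the SLC16 family, and several of them reach the plasma membrane only with a chaperone, basigin (Bsg) or embigin (Emb). The mRNA levels of 8 genes of this system were compared between the choroid (CH), the retinal pigment epithelium (RPE) and the photoreceptors (PR) of the mouse. The genes are Slc16a1 (MCT1), Slc16a7 (MCT2), Slc16a8 (MCT3), Slc16a3 (MCT4), Slc16a6 (MCT7), Slc16a10 (MCT10), Bsg and Emb. They were taken by name: all array probes that are not controls and that carry 1 of these symbols were used, which gave 12 probes of 39429, or 8 genes of 31829. Of the 8 genes, 4 had 1 probe and 4 had 2 probes.

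Photoreceptors run a high rate of aerobic glycolysis and release lactate, and the RPE stands between them and the blood supply of the choroid. MCT1 lies on the apical side of the RPE and MCT3 on its basolateral side, so that lactate can cross the cell layer. Mice without basigin lose MCTs from the membranes of the outer retina and their photoreceptors degenerate. MCT7 and MCT10 belong to the same family, but MCT10 carries aromatic amino acids and not lactate.

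The arrays were dual-colour Agilent whole genome arrays of 3 samples per tissue, 9 in all. Each sample was laser dissected from cryosections of 1 whole eye of a female C57BL/6 mouse, 6 months old with a range of 2 weeks according to the labels, which name no treatment. The study's methods give another age, and name the J substrain. The RPE was dissected away before the choroid. Amplified RNA of the tissue carried Cy5 and RNA of mouse RPE and choroid together, the common reference, carried Cy3, with no dye swap, so each value below is a log2(Cy5/Cy3) ratio against the same reference. Such a ratio compares 1 probe between tissues and does not rank genes against each other. In dissected tissue, a change in the share of a cell type and a change in the RNA per cell cannot be told apart.

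On 8 of the arrays between 63.1% and 71.9% of the probes stood well above background in Cy5, and on that of RPE replicate 2 it was 91.8%. The arrays came from 3 slides: CH and RPE replicates 1 and 3 shared slide 1, all replicates 2 shared slide 2, and PR replicates 1 and 3 lay alone on slide 3. Marker genes of the dissected tissues followed the labels for the most part. Of 7 RPE markers, 5 were called higher in RPE than in CH and 6 higher than in the PR, and all 9 rod and all 5 cone markers were called higher in the PR than in both other tissues. Marker RNA of other tissues was nevertheless present: 6 of the 7 RPE markers (all but Best1) and all 9 rod markers were well above background on all arrays of every tissue. Of the RPE markers, 3 (Rpe65, Rdh5 and Ttr) were saturated on all 3 RPE arrays and Ttr on all CH arrays too, and of the rod markers, 3 (Gnat1, Prph2 and Sag) were saturated on all 3 PR arrays and 8 on at least 1, so that marker means given below hold saturated spots at their measured value. Of 7 endothelial markers, 0 were called between RPE and CH by limma (1 at an unadjusted p below 0.05) and 6 were called higher in RPE than in PR.

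The probes are 60-mers, placed on mm9 by the files. The sequences of 3 of them are shown as examples: the MCT3 probe, the MCT2 probe and the basigin probe. The MCT3 probe covers 60 bases but spans 454 bases of the genome (chr15:79081858-79082311, minus strand), so 394 bases inside its span are not in the probe, as for a probe that joins exons. The MCT2 probe lies at chr10:124665183-124665242 (minus strand) and the basigin probe at chr10:79173390-79173449 (plus strand). All letters are in lower case because no part of a probe was singled out.
Slc16a8 probe: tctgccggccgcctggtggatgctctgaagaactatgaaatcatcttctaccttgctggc
Slc16a7 probe: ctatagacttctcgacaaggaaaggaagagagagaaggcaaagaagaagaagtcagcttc
Bsg probe: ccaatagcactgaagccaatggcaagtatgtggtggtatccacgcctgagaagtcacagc

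Each of the 3 tissues was the highest for some of the 8 genes. The mean ratio was highest in the RPE for Slc16a8 and Bsg, highest in the PR for Slc16a1, Slc16a3 and Slc16a6, and highest in the CH for Slc16a7, Slc16a10 and Emb. It was lowest in the PR for 5 of the 8 genes. For 5 genes (Slc16a8, Slc16a6, Slc16a10, Bsg and Emb), both neighbours in the order of the 3 tissues differed at an adjusted p below 0.01 (limma, Benjamini-Hochberg over all probes), as they did for 7.43% of all genes. For Slc16a1 neither neighbour did. The Slc16a6 step from CH to RPE passed at its reported probe but not at its second one (adjusted p = 0.0466).

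**Figure D1:**
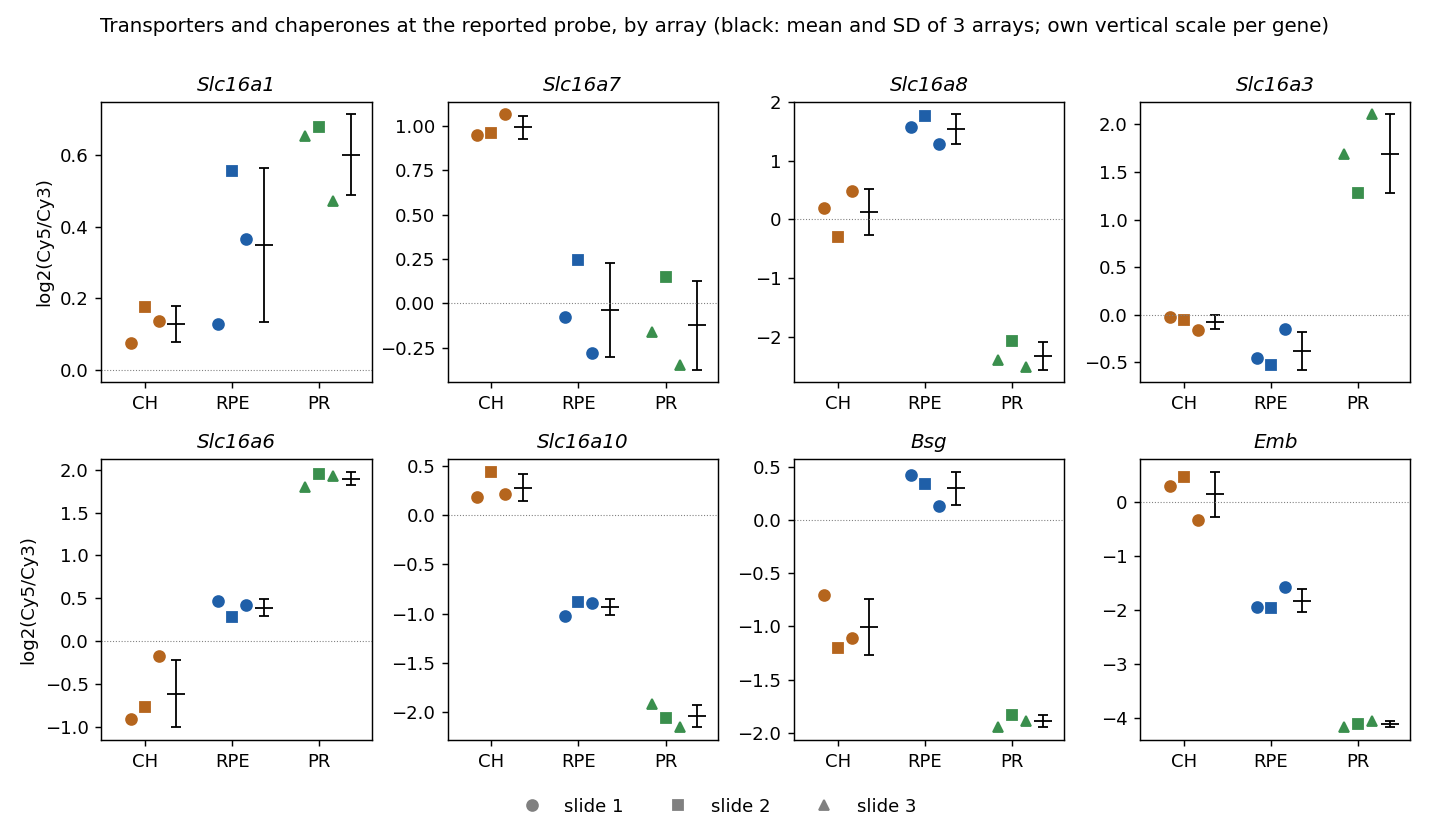
The log2(Cy5/Cy3) ratio (vertical axis, own scale for each gene) of the 8 genes at their reported probe on each of the 9 arrays, grouped by tissue, with the slide as the symbol and the mean and SD of 3 arrays in black. Slc16a8 and Bsg sat highest on the RPE arrays, Slc16a3 and Slc16a6 on the PR arrays and Emb on the CH arrays, and the Slc16a10 values of the PR came from a probe that was not well above background there.

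A gene was called when its fold change (FC) exceeded 2.5 and its adjusted p lay below 0.01 at its reported probe, the brightest of its probes. Between RPE and CH, 1 of the 8 genes (Slc16a8) was called higher in the RPE, against 0.179% of all genes, and 1 (Emb) was called higher in the CH, against 1.74% of all genes. Between RPE and PR, 3 genes (Slc16a8, Bsg and Emb) were called higher in the RPE and 2 (Slc16a3 and Slc16a6) higher in the PR, where 10.9% and 5.18% of all genes were called. Between CH and PR, 3 genes (Slc16a8, Slc16a10 and Emb) were called higher in the CH and 2 (Slc16a3 and Slc16a6) higher in the PR, where 12.7% and 6.01% of all genes were called. By the adjusted p alone, at any FC, 6 of the 8 genes differed between RPE and CH (12.3% of all genes), 6 between RPE and PR (40.0%) and all 8 between CH and PR (43.5%). The median log2 difference of the 8 genes was -0.04 for RPE minus CH, 0.60 for RPE minus PR and 1.00 for CH minus PR, and over all genes it was 0.03, -0.004 and -0.05. These comparisons share arrays pairwise and are not independent of each other.

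**Figure D2:**
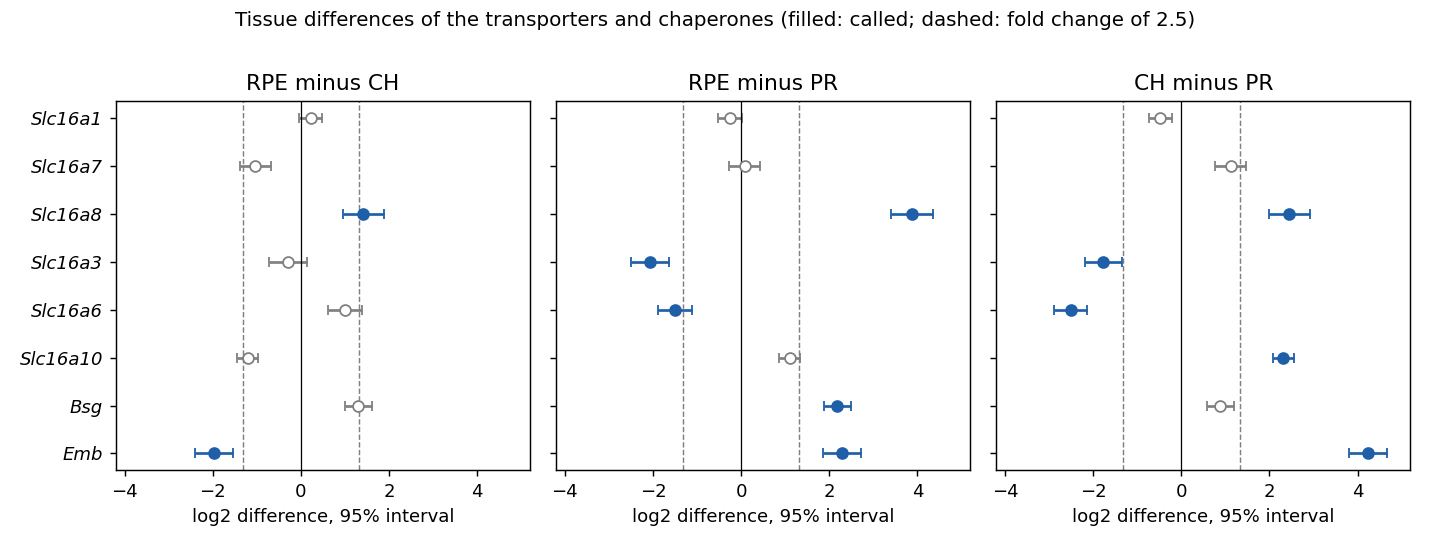
Log2 differences between tissues (horizontal axis) of the 8 genes with their 95% intervals from the linear model, for RPE minus CH, RPE minus PR and CH minus PR, with filled points for called genes and dashed lines at an FC of 2.5. Slc16a8 and Emb were called in all 3 comparisons, Slc16a1 and Slc16a7 in none.

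Slc16a8 encodes MCT3, the lactate transporter of the basolateral RPE membrane. Its ratio was 1.58, 1.77 and 1.28 on the RPE arrays, 0.19, -0.30 and 0.49 on the CH arrays and -2.39, -2.07 and -2.53 on the PR arrays. The 3 tissues did not overlap, with the RPE highest and the PR lowest. The RPE exceeded the CH by 1.42 (SE 0.21, FC 2.67, adjusted p = 0.00149) and the PR by 3.87 (SE 0.21, FC 14.6, adjusted p = 2.60e-07), and the CH exceeded the PR by 2.45 (SE 0.21, adjusted p = 4.76e-06). Within slide 1, RPE minus CH was 1.09 (2 arrays each), and on slide 2 it was 2.07 (1 array each). On slide 2, RPE minus PR was 3.84 and CH minus PR was 1.77. The call over the CH was lost without CH replicate 2, at 1.21, and without RPE replicate 2, at 1.30, and with 3 other settings, at 1.13 to 1.19. From its arrays the study listed Slc16a8 among its mouse RPE signature genes, at the same thresholds over both CH and PR. The study's own semi-quantitative RT-PCR went the other way, with Slc16a8 lower in the RPE than in the CH. RPE markers moved with this gene: the mean ratio over the 7 RPE markers ranged from 1.94 to 2.35 in the RPE, from 0.38 to 1.26 in the CH and from -3.11 to -2.94 in the PR. Among the CH arrays, replicate 3 was highest both for these markers and for Slc16a8, and replicate 2 was lowest for both. Their part in the Slc16a8 value of the CH was not tested.

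Slc16a1 encodes MCT1, the widely expressed lactate and pyruvate transporter found on the apical RPE membrane. Its ratios lay in a narrow range, at 0.07, 0.17 and 0.14 in the CH, 0.13, 0.56 and 0.36 in the RPE and 0.65, 0.68 and 0.47 in the PR. The RPE overlapped with both other tissues, and only CH and PR were apart. RPE minus CH was 0.22 (95% interval -0.05 to 0.49, adjusted p = 0.235) and RPE minus PR was -0.25 (95% interval -0.52 to 0.02, adjusted p = 0.110). Both intervals lay inside an FC of 2.5 in either direction. CH minus PR was -0.47 (SE 0.12, FC 1.39, adjusted p = 0.00715), under the FC threshold. It lay between -0.72 and -0.31 over the alternatives, and with the slide as a block it was -0.42 (adjusted p = 0.0874, in a range from 0.00255 to 0.0874 over all alternatives).

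Slc16a7 encodes MCT2, a transporter with a high affinity for pyruvate and lactate that is known from neurons, testis and kidney. At its reported probe the CH arrays read 0.95, 0.96 and 1.07, the RPE arrays -0.08, 0.24 and -0.28 and the PR arrays -0.17, 0.15 and -0.35. The CH stood above both other tissues, and RPE and PR overlapped. The CH exceeded the RPE by an FC of 2.04 (RPE minus CH -1.03, SE 0.16, adjusted p = 0.00175) and the PR by an FC of 2.17 (difference 1.12, SE 0.16, adjusted p = 0.000178), both under the FC threshold. It was called over the RPE with median centring (RPE minus CH -1.35) and over the PR in the series table (CH minus PR 1.41). RPE minus PR was 0.08 (95% interval -0.27 to 0.44, adjusted p = 0.700), and its sign changed with the processing. The second probe of Slc16a7 was well above background on only 1 of the 9 arrays, and its differences lay between -0.06 and 0.26. The median of both probes lowered CH minus PR to 0.53 and RPE minus CH to -0.39. A further 2 probes carry clone names in the files and belong to Slc16a7 by the RefSeq table, and they were not among the 12.

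Slc16a3 encodes MCT4, the lactate exporter of highly glycolytic cells. Its ratio was 1.69, 1.28 and 2.11 on the PR arrays, against -0.02, -0.05 and -0.16 on the CH arrays and -0.45, -0.53 and -0.15 on the RPE arrays. The PR was higher on each of its arrays than any array of the other tissues. The FC of the PR was 4.19 over the RPE (difference RPE minus PR -2.07, SE 0.19, adjusted p = 9.95e-06) and 3.40 over the CH (CH minus PR -1.77, SE 0.19, adjusted p = 2.55e-05). On slide 2 these differences were -1.80 and -1.33, with 1 array each. RPE minus CH was -0.30 (95% interval -0.73 to 0.13, adjusted p = 0.318). The second probe overlaps the first by 53 bases and gave nearly the same differences, at -2.19 against the PR and -0.32 against the CH for the RPE.

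Slc16a6 encodes MCT7, a family member known to carry ketone bodies. Its PR arrays read 1.81, 1.95 and 1.93, its RPE arrays 0.47, 0.28 and 0.42 and its CH arrays -0.91, -0.77 and -0.17. The order was PR, RPE and CH with no overlap. The PR exceeded the CH by an FC of 5.71 (CH minus PR -2.51, SE 0.17, adjusted p = 9.44e-07) and the RPE by an FC of 2.84 (RPE minus PR -1.51, SE 0.17, adjusted p = 4.47e-05). RPE minus CH was 1.01 (SE 0.17, FC 2.01, adjusted p = 0.00289), under the FC threshold. At the second probe the PR was called over the CH (CH minus PR -2.14), while RPE minus PR was -1.25 (adjusted p = 0.00360) and not called. The call over the RPE was also lost in the series table, at -1.16, with the Cy5 channel alone, at -1.15, and after scaling between arrays, at -0.96.

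Rod markers were high on the same PR arrays as Slc16a3 and Slc16a6. The mean ratio over the 9 rod markers ranged from 3.60 to 3.80 in the PR, from -0.70 to 0.19 in the RPE and from -1.33 to -0.48 in the CH. For Müller glia, whose processes reach between the photoreceptors, the mean over 6 markers was between -2.55 and -1.45 on the PR arrays, and 0 of the 6 were called higher in the PR by limma (0 against the RPE and 1 against the CH at an unadjusted p below 0.05). Of 8 inner retina markers, 2 (Grm6 and Prkca, both of bipolar cells) were called higher in the PR than in both other tissues. What part rods, Müller glia or inner retina had in the values of Slc16a3 and Slc16a6 was not tested.

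Slc16a10 encodes MCT10, a transporter of aromatic amino acids. Its reported probe read 0.18, 0.44 and 0.21 on the CH arrays and -1.02, -0.89 and -0.89 on the RPE arrays, and it was not well above background on any PR array. All CH arrays read above all RPE arrays. RPE minus CH was -1.21 (SE 0.11, FC 2.31, adjusted p = 0.000141), under the FC threshold. Against the PR, where only a bound can be given, the CH was at least 4.35-fold higher (adjusted p = 6.02e-08) and the RPE at least 1.78-fold higher (adjusted p = 1.25e-05). These bounds come from the Cy5 channel after normalization between arrays and are open to dye bias. The measured PR mean was -2.04 ± 0.11 (SD, n = 3). The second probe, designed on another transcript variant, was well above background on 2 CH arrays only, and there the CH was at least 1.58-fold higher than the RPE.

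Bsg encodes basigin, the immunoglobulin-family chaperone that MCT1, MCT3 and MCT4 need at the membrane. Its ratio was 0.43, 0.34 and 0.13 on the RPE arrays, -0.70, -1.20 and -1.11 on the CH arrays and -1.95, -1.83 and -1.89 on the PR arrays. The RPE was highest and the PR lowest, with no overlap between tissues. The RPE exceeded the PR by 2.19 (SE 0.14, FC 4.55, adjusted p = 7.36e-07). Over the CH it reached 1.30 (SE 0.14, FC 2.46, adjusted p = 0.000331), just under an FC of 2.5. This difference passed without CH replicate 1, at 1.45, without RPE replicate 3, at 1.39, and after scaling between arrays, at 1.49. It fell to 1.08 with median centring, 1.10 with the Cy5 channel alone (adjusted p = 0.0344) and 1.07 in the series table (adjusted p = 0.0354). The CH exceeded the PR by 0.89 (SE 0.14, FC 1.85, adjusted p = 0.000356), which fell to 0.27 after scaling between arrays. Within slide 1, RPE minus CH was 1.18, and on slide 2 it was 1.54. All values come from 1 probe, which does not separate the isoforms of basigin.

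Emb encodes embigin, the related chaperone that serves MCT2. It fell in steps from CH to PR, at 0.29, 0.46 and -0.33 on the CH arrays, -1.94, -1.96 and -1.58 on the RPE arrays and -4.17, -4.11 and -4.05 on the PR arrays. The tissues did not overlap. The CH exceeded the RPE by an FC of 3.90 (RPE minus CH -1.96, SE 0.19, adjusted p = 0.000221) and the PR by a log2 difference of 4.25 (SE 0.19, adjusted p = 5.94e-08). The RPE exceeded the PR by an FC of 4.87 (difference 2.28, SE 0.19, adjusted p = 5.28e-06), a call that was lost after scaling between arrays, at 0.93. Within slide 1, RPE minus CH was -1.74, and on slide 2 it was -2.42. The chaperones had opposite orders between RPE and CH: Bsg was higher in the RPE and Emb in the CH.

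Fibroblast markers had the same order of tissues as Emb. Their mean ratio over 5 genes ranged from 1.29 to 1.74 in the CH, from -1.29 to -0.94 in the RPE and from -5.03 to -4.41 in the PR, and all 5 were called in each comparison, with Dcn saturated on all CH arrays. Of 5 leukocyte markers, 5 were called higher in CH than in PR and 0 between RPE and CH by limma (all 5 at an unadjusted p below 0.05, 4 of them higher in the CH). The part of fibroblasts or leukocytes in the Emb, Slc16a7 and Slc16a10 values of the CH was not tested.

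**Figure D3:**
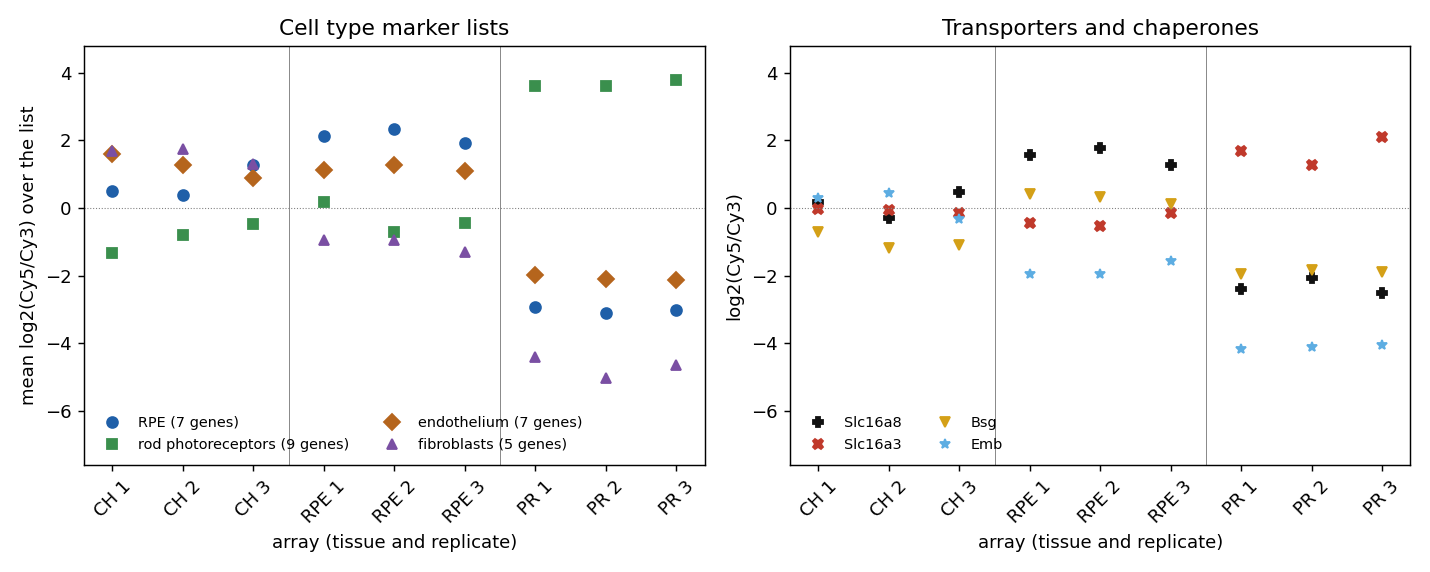
Left, the mean log2(Cy5/Cy3) ratio over the markers of 4 cell types on each of the 9 arrays, and right, the log2(Cy5/Cy3) ratio of Slc16a8, Slc16a3, Bsg and Emb on the same arrays (horizontal axis, tissue and replicate). RPE markers and Slc16a8 were highest on the RPE arrays, rod markers and Slc16a3 on the PR arrays, and fibroblast markers and Emb on the CH arrays.

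Further SLC16 genes were compared on the same arrays, 7 of them, all measured. Between RPE and CH 0 of the 7 were called by limma, although 3 had an unadjusted p below 0.05, all higher in the RPE, and 1 (Slc16a9) an adjusted p below 0.01. Against the PR, 2 (Slc16a4 and Slc16a9) were called higher in the RPE (10.9% of all genes) and the same 2 higher in the CH (12.7%). The median log2 difference over the 7 was 0.42 for RPE minus CH, 0.79 for RPE minus PR and 0.37 for CH minus PR. Slc16a9, a transporter of carnitine (MCT9), had ratios of 2.25, 2.25 and 1.83 on the RPE arrays, 0.60, 0.59 and 1.28 on the CH arrays and -2.91, -3.36 and -3.17 on the PR arrays. The RPE was highest without overlap, by 5.26 over the PR (SE 0.21, adjusted p = 3.67e-08) and by 1.29 over the CH (SE 0.21, adjusted p = 0.00217), an FC of 2.44. Slc16a4 (MCT5) exceeded the PR by 3.78 in the RPE (adjusted p = 3.65e-07) and by 2.91 in the CH (adjusted p = 1.72e-06). The sodium-coupled monocarboxylate transporters Slc5a8 and Slc5a12 were called in 0 of the comparisons (limma, with 1 unadjusted p below 0.05 among them), with Slc5a8 lower in CH than in PR at an adjusted p of 0.00880 (CH minus PR -0.95), and Slc5a12 was well above background on only 3 of the 9 arrays.

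Of 5 relatives and partners of basigin, 0 were called between RPE and CH by limma (2 at an unadjusted p below 0.05). In each comparison with the PR 4 were called, 2 of them higher in the PR and 2 lower. Of all genes, 5.18% were called higher and 10.9% lower in the PR than in the RPE. Against the CH these shares were 6.01% and 12.7%. The gene of this list that was not called, Nptn (neuroplastin, a close relative of basigin and embigin), differed by -0.68 for RPE minus PR (adjusted p = 0.00227). Its second probe gave -0.29 (adjusted p = 0.248). Nxnl1 encodes the rod-derived cone viability factor, a thioredoxin-like protein that binds a form of basigin on cones. It was higher in PR than in RPE by 2.08 (RPE minus PR -2.08, adjusted p = 4.10e-05) and higher than in the CH by an FC of 5.72, and its second probe gave -2.83 for RPE minus PR. Nxnl2, its paralog, differed by -3.16 for RPE minus PR (adjusted p = 6.93e-07). Slc2a1 encodes the glucose transporter GLUT1, which joins basigin in that complex. Its probe was saturated on 2 of the 3 RPE arrays and on 1 CH array, and the differences given are those measured with these spots included. It exceeded the PR by 4.04 in the RPE (adjusted p = 1.41e-05) and by 2.40 in the CH (adjusted p = 0.000468). Between RPE and CH it differed by 1.64 (adjusted p = 0.0146), with CH replicate 3 at 2.04 and the other CH arrays at 0.46 and 0.19. Ppia, cyclophilin A, an extracellular ligand of basigin, was saturated on all RPE and CH arrays, and its level in the PR was at least 1.75-fold lower than in the RPE (adjusted p = 1.48e-06) and at least 1.77-fold lower than in the CH (adjusted p = 2.40e-06).

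Lactate and pyruvate handling was covered by 18 genes, all measured. Of these, 0 were called between RPE and CH by limma (11 at an unadjusted p below 0.05). Mpc1, Pdk3 and Pcx were higher in the RPE and Ldhd, Pdk4 and Pdp1 in the CH at an adjusted p below 0.01. Such a p was reached by 12.3% of all genes in this comparison. Another Pdp1 probe gave -0.03 for RPE minus CH (adjusted p = 0.902). Between RPE and PR, 7 were called higher in the RPE (10.9% of all genes) and 1 in the PR (5.18%). Between CH and PR, 5 were called higher in the CH (12.7% of all genes) and 2 in the PR (6.01%). The median log2 difference over the 18 was 0.20, 0.05 and 0.07 for RPE minus CH, RPE minus PR and CH minus PR. Both subunit genes of lactate dehydrogenase moved, in opposite directions. Ldha, the muscle-type subunit, read 2.63, 2.18 and 3.19 on the PR arrays, -0.89, -1.20 and -0.87 on the RPE arrays and -1.23, -0.81 and -0.92 on the CH arrays. The PR was higher on all arrays, by an FC of 12.6 over the RPE (adjusted p = 6.84e-07), and the 2 other Ldha probes gave RPE minus PR differences of -2.55 and -2.45. For RPE minus CH these 2 probes gave 0.73 and 0.79 (adjusted p = 0.00527 and 0.0220), while the reported probe showed no difference (adjusted p = 0.9996). Ldhb, the heart-type subunit, read -2.34, -2.44 and -2.36 on the PR arrays, 0.51, 0.71 and 0.13 on the RPE arrays and -0.45, -0.36 and 0.26 on the CH arrays. Here the PR was lower, by 2.83 against the RPE (adjusted p = 1.37e-06) and by 2.20 against the CH (adjusted p = 6.57e-06).

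Ldhd, the D-lactate dehydrogenase, was higher in RPE than in PR by 2.13 (adjusted p = 1.10e-07). It was highest in the CH, by 2.71 over the PR (called) and with RPE minus CH at -0.58 (adjusted p = 0.00322). Mpc1, a subunit of the mitochondrial pyruvate carrier, was higher in RPE than in PR by 1.93 (adjusted p = 1.53e-06), while Mpc2, its partner, differed by -0.32 (adjusted p = 0.0373). Pcx, pyruvate carboxylase, exceeded the PR by 2.83 in the RPE (adjusted p = 4.92e-07). Among the kinases that switch off pyruvate dehydrogenase, Pdk1, Pdk2 and Pdk4 were called higher in RPE than in PR, and Pdk3 was not (-0.19, adjusted p = 0.210). The differences were 1.39 for Pdk1, 1.51 for Pdk2 and 3.21 for Pdk4, whose probe was well above background on only 1 of the 3 PR arrays. The second Pdk2 probe reached 0.77 for RPE minus PR and was not called. At the reported probes the CH was also called over the PR for Pdk2, by 1.44, and for Pdk4, by 4.12. Pdk4 was highest in the CH, with RPE minus CH at -0.91 (adjusted p = 0.00312). Dld, the third subunit of pyruvate dehydrogenase, was called higher in PR than in CH (CH minus PR -1.41, adjusted p = 1.54e-05).

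**Figure D4:**
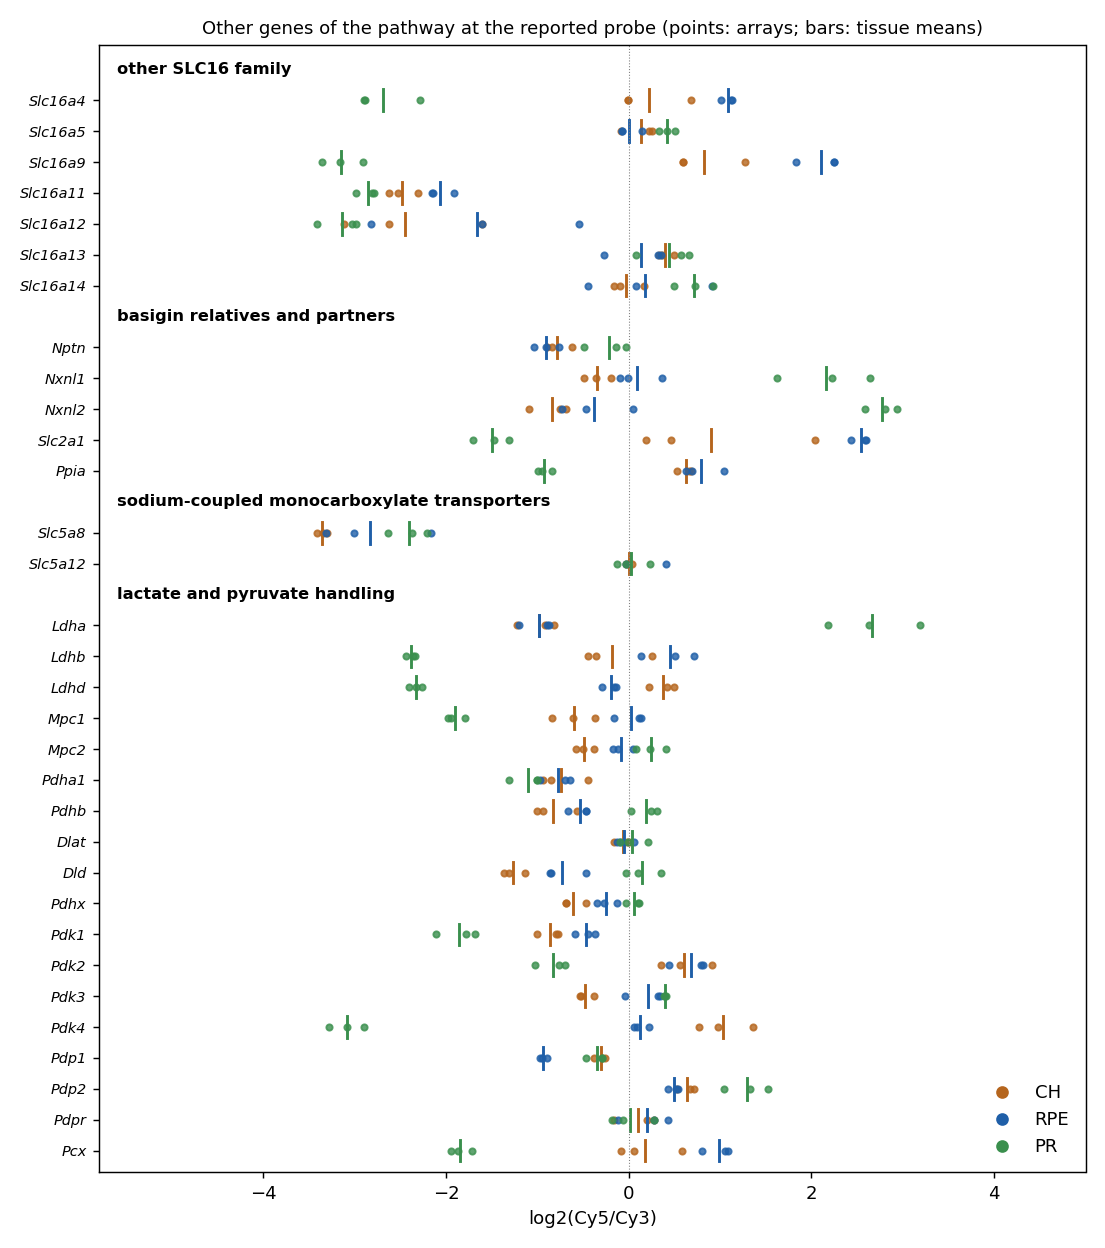
The log2(Cy5/Cy3) ratio (horizontal axis) of 32 further genes of the pathway, in 4 groups, on each array (points) with the mean of 3 arrays per tissue (bars), in brown for CH, blue for RPE and green for PR. Ldha, Nxnl1 and Nxnl2 had their PR points to the right of the other tissues, and Slc16a4, Slc16a9, Ldhb and Pcx had theirs to the left.

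The genes whose pattern over the 9 arrays was most like that of Slc16a8, Slc16a1 and Bsg were taken by Pearson correlation of the log2 ratio among 21777 probes with a gene symbol. The 9 arrays fall into 3 tissues, so a high r mostly reflects the same order of 3 means. For Slc16a8 the first 5 were Trmt9b (r = 0.999), Echs1, Pde1c, Wnk4 and Rnf215 (r = 0.997). Their RPE minus CH differences were smaller than that of Slc16a8, between 0.32 and 0.97. For Bsg they were Adora2b (r = 0.995), Fibp, Stx6, Aldh6a1 and Fads2 (r = 0.991), and Adora2b differed by 1.40 for RPE minus CH and 2.32 for RPE minus PR. For Slc16a1 they were Kcnk4 (r = 0.987), Zfp644, Cyp4a12b, Capns2 and Gtpbp3 (r = 0.960), with CH minus PR differences between -0.59 and -0.38.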

How the data were processed

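The data are 9 dual-colour Agilent expression arrays, 3 per tissue. The authors deposited the Feature Extraction (9.5.3.1, per the labels) output, in which mean signals and median local backgrounds are intensity values as scanned, and a series table of log2 values of the Cy5 channel, whose normalization is not given in the sources used here and which served as an alternative. Signals were background corrected (normexp, offset 50), loess normalized within arrays without controls, and outlier-marked spots were dropped. Repeated spots were averaged. A mean per tissue was fitted with limma 3.58.1 (R 4.3.3) to all 9 arrays, p-values were Benjamini-Hochberg adjusted over 39429 probes, and thresholds were FC 2.5 and adjusted p 0.01. No reported probe of the 8 genes was saturated.

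The members, lists and tests were chosen with earlier results of these data known. Another gene that had been listed is not reported here and enters no count. Named genes were all 8 members, the other called genes of the pathway lists and the 5 genes most like Slc16a8, Slc16a1 and Bsg. Nptn, Slc5a8, Slc5a12, Mpc2, Pdk3 and Pdp1, called in no comparison, fall outside this rule and were chosen after their values were seen. Symbols of list genes were updated through RefSeq (GRCm38.p6), through which 26055 probes were named from their accession, 3196 from their symbol and 928 from a former symbol, while 9250 kept the name in the file. The 10 marker lists covered RPE, rods, cones, Müller glia, inner retina, endothelium, fibroblasts, leukocytes, red blood cells and skeletal muscle. Of the latter lists, 0 of 4 red blood cell genes measured and 0 of 5 skeletal muscle genes were called between RPE and CH by limma, and 0 of either at an unadjusted p below 0.05. The samples are separate eyes, and 3 arrays per tissue limit the precision. Whether each eye came from another animal is not given in the sources used here, so p-values measure the spread between these samples. The fit was tested on simulated arrays of 39429 probes, with RPE values of 100 probes shifted up or down by 2 and of another 100 by 3 on the log2 scale. For RPE minus CH, 92 and 98 of these were called, and 1 unshifted probe. Differences near the FC threshold, such as those of Slc16a8 and Bsg between RPE and CH, were not simulated, nor were slide effects. Alternatives covered background, normalization, reference channel, blocks, probes, variance model, series table, thresholds and each array left out.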

Additional observations from a re-analysis of the deposited data

How the results depend on the processing

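Over 27 alternatives, the counts of called genes stayed within 1.5 times the reported ones in 74 of 81 cases. Between RPE and CH, where 2 genes were called, 4 were called after scaling between arrays, 6 at an FC above 2 and 6 without an FC threshold, and between 1 and 3 with 1 array left out (1 without CH replicate 2 and 1 without RPE replicate 2, when Slc16a8 was lost). Between RPE and PR, 3 genes in place of 5 were called after scaling between arrays. Between CH and PR, all 8 passed without an FC threshold. With 1 array left out, 5 genes were called in each comparison with the PR. Scaling between arrays also lowered Emb for RPE minus PR to 0.93, Slc16a6 to -0.96 and Slc16a10 to 0.43, whereas Slc16a10 rose to 1.98 for RPE minus PR with Feature Extraction's processed signals and to 1.33 with a normexp offset of 16, and was then called. Slc16a7 was called for RPE minus CH with median centring (-1.35), in place of Slc16a8, and for CH minus PR in the series table (1.41). Bsg was called for RPE minus CH after scaling (1.49). The call of Slc16a8 over the CH was lost with median centring (1.19), with the Cy5 channel alone (1.14) and in the series table (1.13), and Slc16a10 was called between RPE and CH with Feature Extraction's processed signals (-1.46), after scaling (-1.42), with Cy5 alone (-1.36) and in the series table (-1.39). Slc16a7 changed sign for RPE minus PR, from 0.08 to -0.10 with processed signals, -0.0355 with median centring, -0.16 with Cy5 alone, -0.0593 with the slide as a block, -0.0595 in the series table, and it lay between -0.0574 (without RPE replicate 2) and 0.219 (without PR replicate 2) with 1 array left out. The cause of these changes was not tested. The median over all probes of CH minus PR moved from -0.05 to -0.14 with Cy5 alone, -0.12 in the series table, and -0.11 with median centring. With the replicate number as a block, 2, 5 and 5 genes were called in the 3 comparisons, as without it. The deviations of same-numbered samples from their tissue means correlated between -0.08 and 0.29, which cannot decide whether these samples were paired. Replicates 2, which shared a slide, correlated between 0.16 and 0.29. RPE and PR replicates 3, on different slides, also reached 0.29. CH and RPE on slide 1 gave -0.07 for replicates 1 and -0.04 for replicates 3. With the slide as a block the counts were 2, 5 and 5 as well. Comparisons with the PR have only 1 array of each tissue within a slide.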
